A study of Mus musculus with 4 samples.

Results

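The 10 tubulin genes described here were taken by symbol, 4 α-tubulin genes (*Tuba1a*, *Tuba1b*, *Tuba1c* and *Tuba4a*) and 6 β-tubulin genes (*Tubb2a*, *Tubb2b*, *Tubb3*, *Tubb4a*, *Tubb5* and *Tubb6*). All 10 were found among the 17667 genes listed in at least 1 of 4 RNA-seq libraries, and all 10 were among the 15275 genes listed in every library. The libraries were made from sympathetic ganglia (SG) of thoracic levels T1 to T4, which send sympathetic nerves to interscapular brown adipose tissue (iBAT). All mice were C57BL/6, 12 weeks old and had spent 1 day at 5 °C, so that no library came from mice kept warm. The groups were wild type (WT, libraries WT_1 and WT_2), TRKC+/- (1 library) and AdNTF3-Tg (1 library). TRKC+/- mice carry 1 functional allele of the receptor of neurotrophin-3 (NT-3) in all cells. AdNTF3-Tg mice overexpress NT-3 under the adiponectin promoter, that is in adipocytes and not by design in the ganglia. Each library was a pool of ganglia from several mice of 1 genotype, so that no spread between mice could be measured. The labels do not say which WT library was the control of which mutant, and each mutant library was therefore set against both.

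Microtubules are hollow polymers of α/β-tubulin dimers. They run along axons as tracks for transport and as a scaffold for growth, and neurons hold much tubulin. The mouse genome carries several α and several β genes, called isotypes, whose protein bodies are nearly alike and whose acidic tails at the carboxyl end differ most. *Tuba1a* encodes the main α-tubulin of growing neurons, and *Tubb3* encodes βIII-tubulin, the isotype widely used as an antibody marker of neurons. *Tubb2a* and *Tubb2b* encode the class II isotypes, which are prominent in the nervous system. *Tubb4a* is also prominent there, whereas *Tuba1b* and *Tubb5* are expressed in many cell types.

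Reads of 50 bases were sequenced, and some tubulin genes are so alike that a read of that length can come from more than 1 of them. The first set of sequences shows 60 coding bases of β genes, from coding base 397, with capitals where a gene differs from *Tubb2a*. On NCBIM37 they lie at chr13:34167219-34167278 (minus strand) for *Tubb2a*, chr13:34220222-34220281 (minus strand) for *Tubb2b*, chr8:125944626-125944685 (plus strand) for *Tubb3*, chr17:57220992-57221051 (minus strand) for *Tubb4a* and chr17:35972806-35972865 (minus strand) for *Tubb5*, each within 1 exon.
Tubb2a: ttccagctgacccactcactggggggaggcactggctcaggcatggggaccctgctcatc
Tubb2b: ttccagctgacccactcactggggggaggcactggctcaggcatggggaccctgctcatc
Tubb3: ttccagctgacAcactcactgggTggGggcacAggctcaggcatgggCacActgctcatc
Tubb4a: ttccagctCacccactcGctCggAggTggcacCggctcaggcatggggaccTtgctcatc
Tubb5: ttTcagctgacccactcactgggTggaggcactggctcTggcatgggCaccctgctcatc
*Tubb2a* and *Tubb2b* were the same over this window, while *Tubb3*, *Tubb4a* and *Tubb5* differed from them at 6, 7 and 4 bases.

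Over whole coding sequences in the GENCODE annotation of NCBIM37, *Tuba1a* and *Tuba1b* were identical at 98.3% of aligned bases, with a longest run of 281 identical bases. *Tuba1b* and *Tuba1c* were identical at 97.94%, and *Tuba1a* and *Tuba1c* at 97.12%. *Tuba4a* was between 84.73% and 85.19% identical to these 3 genes. Among the β genes, *Tubb2a* and *Tubb2b* were identical at 96.49% of bases, with a longest run of 551. The other β pairs lay between 80.21% for *Tubb5* and *Tubb6* and 85.88% for *Tubb3* and *Tubb6*.

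The second set of sequences gives the last 60 coding bases before the stop codon of *Tuba4a* and of β genes, with glutamate codons in capitals, since this stretch encodes the acidic tail to which tubulin-modifying enzymes add further glutamates. The gene *Tubb6* is given by its codon count only. On NCBIM37 and on the strand of each gene they lie at chr1:75212200-75212259 for *Tuba4a*, chr13:34166340-34166399 for *Tubb2a*, chr13:34219343-34219402 for *Tubb2b*, chr8:125945520-125945579 for *Tubb3*, chr17:57220116-57220175 for *Tubb4a* and chr17:35971930-35971989 for *Tubb5*.
Tuba4a: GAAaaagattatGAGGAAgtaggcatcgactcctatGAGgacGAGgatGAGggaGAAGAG
Tubb2a: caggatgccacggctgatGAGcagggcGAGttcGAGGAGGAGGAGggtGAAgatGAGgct
Tubb2b: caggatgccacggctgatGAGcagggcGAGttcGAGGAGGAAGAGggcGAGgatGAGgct
Tubb3: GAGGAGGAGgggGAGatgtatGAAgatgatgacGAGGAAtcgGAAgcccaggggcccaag
Tubb4a: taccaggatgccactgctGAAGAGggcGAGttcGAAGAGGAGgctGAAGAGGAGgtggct
Tubb5: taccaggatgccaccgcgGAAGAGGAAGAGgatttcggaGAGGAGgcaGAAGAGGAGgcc
Glutamate codons made up 9 of the last 20 codons in *Tubb4a* and *Tubb5*, and 8 in *Tuba4a*, *Tubb2a*, *Tubb2b*, *Tubb3* and *Tubb6*. *Tuba4a* ended in the glutamate codon GAG, without the final tyrosine of most α-tubulin genes, the residue that is removed and added back in the tyrosination cycle of microtubules. *Tubb3* ended in a lysine codon, AAG.

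The genes lie in clusters and singly. *Tuba1a* (chr15:98780272-98783982, minus strand), *Tuba1b* (chr15:98761856-98764996, minus strand) and *Tuba1c* (chr15:98860322-98868536, plus strand) are neighbours on chromosome 15, and *Tubb2a* (chr13:34166170-34169877) and *Tubb2b* (chr13:34218877-34222223) are neighbours on the minus strand of chromosome 13. *Tubb4a*, named *Tubb4* in that annotation (chr17:57219489-57227205), and *Tubb5* (chr17:35970871-35975251) are both on the minus strand of chromosome 17 but far apart. *Tuba4a* (chr1:75211549-75215828, minus strand), *Tubb3* (chr8:125935324-125945915, plus strand) and *Tubb6* (chromosome 18, plus strand) stand alone. Each gene has 4 exons. *Tuba4a* overlaps the kinase gene *Stk16* on the opposite strand by 633 bases, and the annotated model *Gm20388* spans *Tubb3* on its own strand.

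The library labelled TRKC+/- held *Ntrk3*, the gene of TRKC, at 2.72 FPKM from 91 reads, against 2.45 FPKM from 78 reads in WT_1, 2.52 from 83 in WT_2 and 2.32 from 76 in AdNTF3-Tg. The log2 ratio of reads was 0.18 (95% counting interval -0.27 to 0.64) to WT_1 and 0.13 (-0.32 to 0.57) to WT_2. The *Ntrk3* reads were thus not fewer in that library, and TRKC+/- stands hereafter for the library labelled so. *Ntf3*, the gene of NT-3, had 2 reads in the library labelled TRKC+/- and was not listed in the others. The transgene is driven in adipocytes, so *Ntf3* in ganglia does not check the AdNTF3-Tg label.

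Tubulin transcripts were among the most abundant in the ganglia. The 10 genes held 1.36% of all reads on genes in WT_1, 1.35% in WT_2, 1.35% in TRKC+/- and 1.25% in AdNTF3-Tg. *Tuba1a* ranked 2 of 15275 genes by mean FPKM (reads scaled to transcript length and library depth), *Tubb3* 17, *Tuba1b* 22, *Tubb2a* 37 and *Tubb5* 56. *Tubb2b* ranked 160, *Tubb4a* 234 and *Tuba4a* 271, whereas *Tubb6* ranked 3893 and *Tuba1c* 8555.

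**Figure D1:**
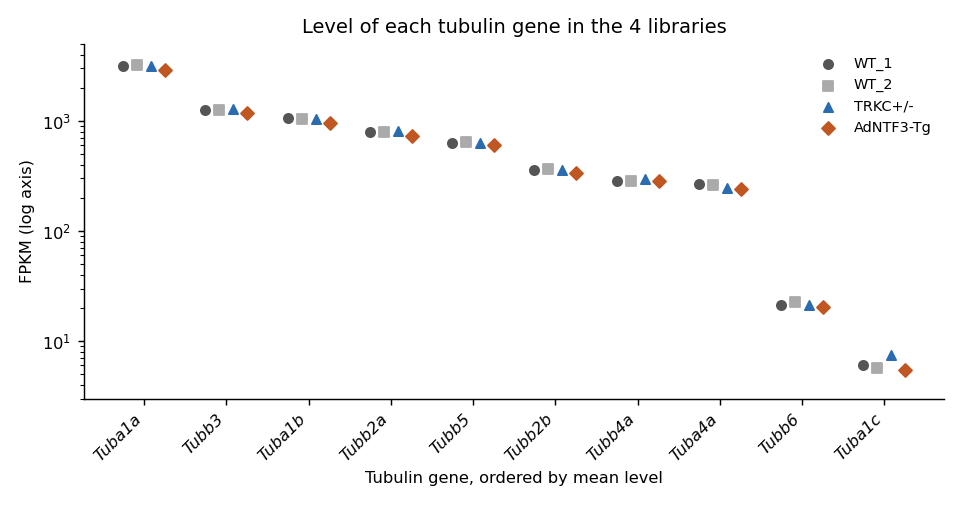
FPKM on a log axis of the 10 tubulin genes, ordered by mean level, with 1 point for each of the 4 libraries (WT_1, WT_2, TRKC+/- and AdNTF3-Tg). The points of a gene lie close together, from 2878.17 to 3196.78 FPKM for *Tuba1a* down to 5.45 to 7.45 FPKM for *Tuba1c*, and the ranges of neighbouring genes do not overlap.

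Among the α genes, *Tuba1a* stood at 3152.38 FPKM in WT_1, 3196.78 in WT_2, 3138.97 in TRKC+/- and 2878.17 in AdNTF3-Tg. *Tuba1b* stood at 1066.46, 1033.54, 1030.55 and 951.99 FPKM in those libraries. Both genes were lowest in AdNTF3-Tg, and their other 3 libraries lay close together. *Tuba4a*, the isotype without the tail tyrosine, stood at 264.7 FPKM in WT_1, 263.41 in WT_2, 247.2 in TRKC+/- and 243.01 in AdNTF3-Tg, so that both mutant libraries were below both WT libraries. *Tuba1c* stood at 6.03 FPKM in WT_1, 5.63 in WT_2, 7.45 in TRKC+/- and 5.45 in AdNTF3-Tg, from between 91.62 and 127.18 expected reads. It was the only α gene with its highest level in TRKC+/-.

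Among the β genes, *Tubb3* led with 1243.73 FPKM in WT_1, 1260.47 in WT_2, 1280.91 in TRKC+/- and 1170.85 in AdNTF3-Tg. *Tubb2a* stood at 793.43, 793.61, 801.4 and 732.62 FPKM in the same order. *Tubb2b* stood at 357.75, 364.11, 354.43 and 339.6 FPKM. In these 3 genes AdNTF3-Tg was again the lowest library. *Tubb5* stood at 627.97 FPKM in WT_1, 649.62 in WT_2, 635.53 in TRKC+/- and 604.58 in AdNTF3-Tg. *Tubb4a* stood at 283.78, 282.29, 298.47 and 281.77 FPKM, and *Tubb6* at 21.3, 22.66, 21.4 and 20.23 FPKM. The level of *Tubb4a* in AdNTF3-Tg was within 1 FPKM of that in WT_2, and TRKC+/- was its highest library.

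The order of the 10 levels was the same in every library, since no range overlapped that of a neighbour. The lowest value of *Tuba1a* was 2.25 times the highest value of *Tubb3*, the next gene. The closest neighbours were *Tubb4a* and *Tuba4a*, where the lowest value of the former was 1.06 times the highest of the latter, followed by *Tubb3* and *Tuba1b* with a factor of 1.1. The widest gap was between *Tuba4a* and *Tubb6*, by a factor of 10.7. The 4 libraries differ in genotype, so these ranges are not replicate errors.

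The summed FPKM of the 4 α genes was 4489.57 in WT_1, 4499.36 in WT_2, 4424.17 in TRKC+/- and 4078.62 in AdNTF3-Tg. That of the 6 β genes was 3327.96, 3372.76, 3392.14 and 3149.65 in the same order. The β sum leaves out *Tubb4b*, a further β gene described below. Over these 10 genes the ratio of α to β was 1.349 in WT_1, 1.334 in WT_2, 1.304 in TRKC+/- and 1.295 in AdNTF3-Tg, with the 2 WT libraries the highest. On the log2 scale the summed FPKM of all 10 genes in AdNTF3-Tg was -0.11 to WT_1 and -0.12 to WT_2, while WT_2 to WT_1 was 0.01.

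The mixture of these isotypes, again without *Tubb4b*, hardly varied between libraries. With *Tubb4b* and *Tubb1* included, the mean share of *Tubb2a* in the WT libraries, for example, was 20.8% in place of 23.7%. *Tuba1a* made up between 70.22% and 71.05% of the α sum, *Tuba1b* between 22.97% and 23.75%, *Tuba4a* between 5.587% and 5.958%, and *Tuba1c* between 0.1251% and 0.1684%. *Tubb3* made up between 37.17% and 37.76% of the β sum, *Tubb2a* between 23.26% and 23.84%, and *Tubb5* between 18.74% and 19.26%. *Tubb2b* gave between 10.45% and 10.8%, *Tubb4a* between 8.37% and 8.946%, and *Tubb6* between 0.6309% and 0.6719%.

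**Figure D2:**
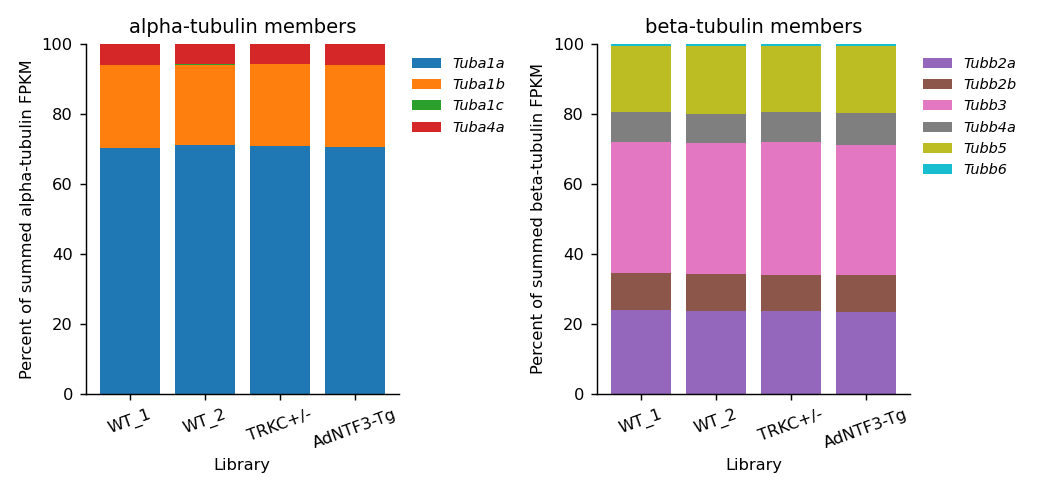
Percent of the summed FPKM of the α-tubulin genes (left) and of the β-tubulin genes (right) given by each gene in the 4 libraries. *Tuba1a* fills between 70.22% and 71.05% of the α bars and *Tubb3* between 37.17% and 37.76% of the β bars.

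The division of reads between near-identical genes bears on these levels. The deposited expected counts of *Tuba4a*, *Tubb3*, *Tubb4a*, *Tubb5* and *Tubb6* were whole numbers (within 0.001) in 4 of 4 libraries. Those of *Tuba1a*, *Tuba1b*, *Tuba1c*, *Tubb2a* and *Tubb2b* were whole in 0 of 4 libraries. In WT_1, for example, *Tubb2a* had 10937.94 and *Tubb2b* 5815.06 expected reads. Their sums were whole in every library, 16753 in WT_1, 17016 in WT_2, 17143 in TRKC+/- and 15682 in AdNTF3-Tg. The sums of *Tuba1a*, *Tuba1b* and *Tuba1c* were whole in 0 of 4 libraries.

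Of the 50-base stretches in the coding sequence, 74.5% of those of *Tuba1a*, 86.8% of *Tuba1b* and 88.9% of *Tuba1c* also occurred in a transcript of another gene. The figure was 55.2% for *Tubb2a* and for *Tubb2b*, and 0.0% for *Tuba4a*, *Tubb3* and *Tubb6*. *Tubb4a* shared 4 coding stretches and *Tubb5* 1, each with *Tubb2a* and *Tubb2b*. Besides each other, *Tuba1a*, *Tuba1b* and *Tuba1c* shared between 45 and 102 stretches with an annotated transcript of *Slc7a11*, a cystine transporter gene. *Tuba1c* had the highest shared percent of the 10 over coding sequences, but over whole transcripts *Tuba1b* and *Tuba1a* shared a higher percent. It had 91.62 expected reads in AdNTF3-Tg beside 38617.91 of *Tuba1a*. How far the level of *Tuba1c* depended on the division of shared reads was not tested. *Tuba4a* shared 29.1% of its transcript stretches, all outside its coding sequence, with *Stk16*.

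**Figure D3:**
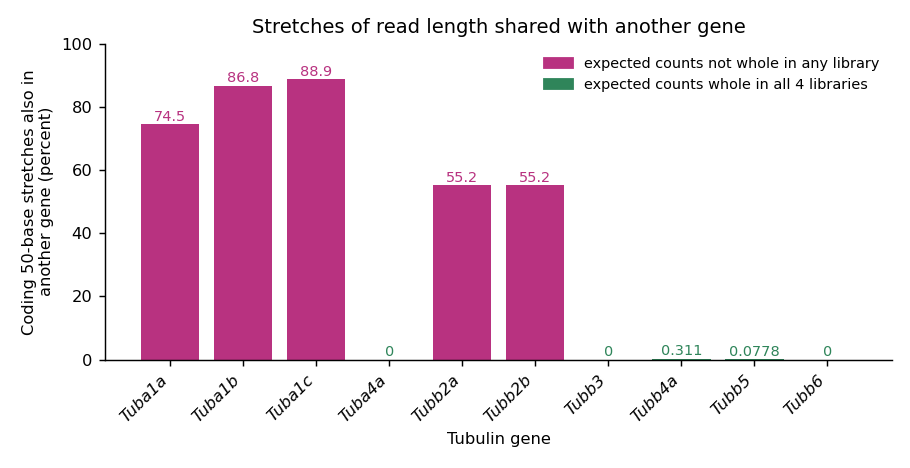
Percent of the 50-base stretches in each tubulin gene's coding sequence that also occur in a transcript of another gene. The 5 genes with expected counts that were not whole in any library (*Tuba1a*, *Tuba1b*, *Tuba1c*, *Tubb2a* and *Tubb2b*) lie between 55.2% and 88.9%, and the 5 genes with whole counts in all 4 libraries lie below 1%.

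The study asked how NT-3 and its receptor bear on gene expression in these ganglia, and the libraries allow 5 pairs: each mutant to each WT library, and WT_2 to WT_1. Differences are given as the log2 ratio of FPKM with 0.1 FPKM added, beside the log2 ratio of reads, each divided by its library total, with its exact 95% counting interval. The interval covers counting error only, since the reads carry no molecular identifiers and each side of a pair is a single pool. Pairs that share a library are not independent of each other.

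None of the 10 tubulin genes differed by 0.5 or more on the log2 scale, the study's cutoff, in any pair. The share of all 15275 genes past that cutoff was 10.7% for TRKC+/- to WT_1, 12.7% for TRKC+/- to WT_2, 13.9% for AdNTF3-Tg to WT_1, 13.3% for AdNTF3-Tg to WT_2 and 13.4% for WT_2 to WT_1. The median log2 FPKM ratio of the 10 genes was 0.01 for TRKC+/- to WT_1 and -0.02 for TRKC+/- to WT_2. It was -0.10 for AdNTF3-Tg to WT_1, -0.11 for AdNTF3-Tg to WT_2 and 0.01 for WT_2 to WT_1. The medians over all genes lay between -0.01 and 0.00 in the 5 pairs.

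**Figure D4:**
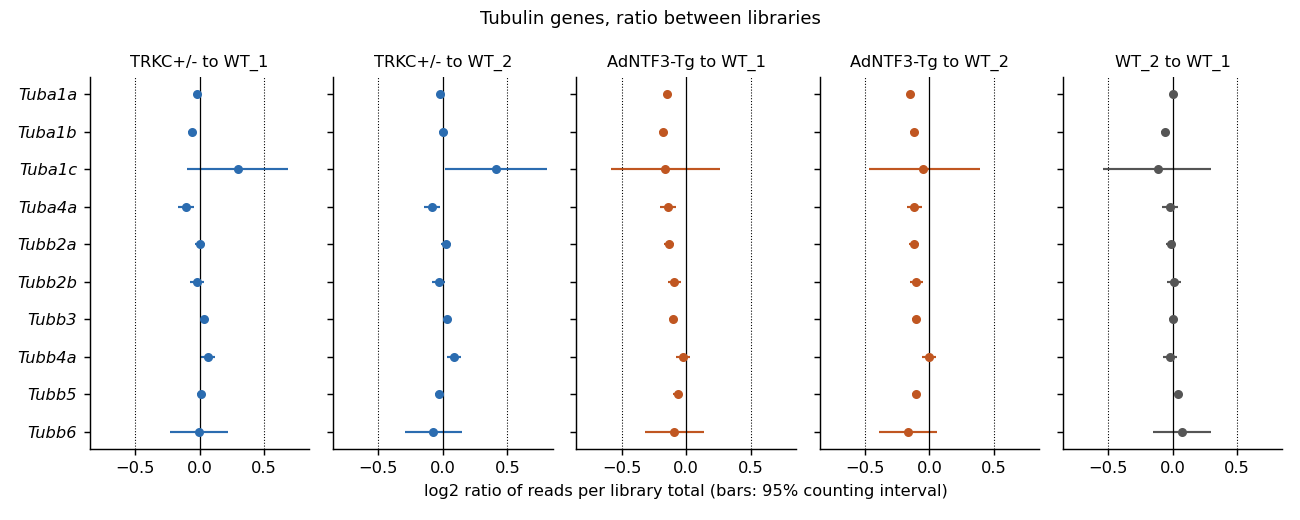
Log2 ratio of reads, divided by library totals, for the 10 tubulin genes in 5 pairs of libraries, with bars for the exact 95% counting interval and dotted lines at -0.5 and 0.5. In both AdNTF3-Tg panels 7 of 10 intervals lie below 0 and none above, and every point in the 5 panels lies between the dotted lines.

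All 10 tubulin genes were at their lowest FPKM in AdNTF3-Tg. Of the 12752 genes averaging 1 FPKM or more, 28.4% were lowest in that library. The tubulins are highly expressed, however, and among the 371 genes averaging 200 FPKM or more, which include 8 of the 10, the share was 62.3%. The median log2 FPKM ratio of these 371 genes was -0.11 to WT_1 and -0.09 to WT_2, about as large as that of the tubulins. The level of 200 FPKM was chosen after the data were seen. When each library's FPKM values were rescaled to the same sum (TPM), 6 of the 10 genes were lowest in AdNTF3-Tg, and 42.9% of the 371 genes were. The median log2 ratio of the 10 genes in TPM was -0.04 to WT_1 and -0.06 to WT_2, and that of the 371 genes -0.04 to each, so that the difference was smaller on this scale for both. In TPM, *Tuba1a* in AdNTF3-Tg stood at -0.07 to WT_1 and -0.10 to WT_2, and *Tubb3* at -0.02 and -0.06. The 2 tubulins outside the high group, *Tubb6* and *Tuba1c*, had counting intervals that included 0 for AdNTF3-Tg to both WT libraries.

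By reads per library total, *Tuba1a* in AdNTF3-Tg had a log2 ratio of -0.15 (95% interval -0.17 to -0.13) to WT_1 and -0.15 (-0.17 to -0.13) to WT_2. WT_2 to WT_1 was 0.00 (-0.02 to 0.02) for the same gene. *Tuba1b* in AdNTF3-Tg had a log2 ratio of reads of -0.18 (-0.21 to -0.15) to WT_1 and -0.12 (-0.15 to -0.09) to WT_2. For *Tuba1b* the WT libraries differed by themselves, with -0.06 (-0.09 to -0.03) for WT_2 to WT_1. When the reads of *Tuba1a*, *Tuba1b* and *Tuba1c* were summed, so that their division between these genes did not matter, the log2 ratio of AdNTF3-Tg was -0.16 (-0.18 to -0.14) to WT_1 and -0.14 (-0.16 to -0.13) to WT_2. The same sum for WT_2 to WT_1 was -0.01 (-0.03 to 0.00).

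*Tubb3* in AdNTF3-Tg had a log2 ratio of reads of -0.10 (-0.13 to -0.07) to WT_1 and -0.11 (-0.14 to -0.08) to WT_2, and the WT libraries were level with a ratio of 0.00 (-0.03 to 0.03). For *Tubb2a* and *Tubb2b* summed, the log2 ratio of reads was -0.12 (-0.15 to -0.09) to WT_1 and -0.11 (-0.14 to -0.08) to WT_2. *Tubb5* gave -0.07 (-0.10 to -0.03) and -0.10 (-0.14 to -0.07), with 0.04 (0.0043 to 0.071) for WT_2 to WT_1. *Tuba4a* gave -0.14 (-0.20 to -0.08) and -0.12 (-0.18 to -0.06). For *Tubb4a*, as for *Tubb6* and *Tuba1c*, the intervals included 0 for both, at -0.02 (-0.08 to 0.03) and 0.00 (-0.06 to 0.05).

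The counting interval lay below 0 for 7 of the 10 genes for AdNTF3-Tg to WT_1, where it excluded 0 in 25.9% of all genes, and for 7 for AdNTF3-Tg to WT_2, where it excluded 0 in 20.7%. The intervals are narrow for tubulins because their counts are deep. For WT_2 to WT_1 the interval excluded 0 for 1 gene above (*Tubb5*) and 1 below (*Tuba1b*), against 20.5% of all genes.

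In the library labelled TRKC+/-, tubulin genes differed in both directions. *Tuba4a* had a log2 ratio of reads of -0.11 (-0.17 to -0.05) to WT_1 and -0.09 (-0.15 to -0.03) to WT_2. *Tubb4a* was higher, at 0.07 (0.01 to 0.12) and 0.09 (0.03 to 0.14). *Tubb3* was higher by little, at 0.03 (0.0043 to 0.063) to WT_1 and 0.03 (0.0014 to 0.059) to WT_2. These 3 genes, which all had whole counts, had intervals that excluded 0 on the same side against both WT libraries, as did 4.46% of all genes. Both pairs share the TRKC+/- library. The deep counts of these genes give narrow intervals, and no share was taken over genes of like depth. On the scales of TMM and of DESeq2's size factors, added after the data were seen, the interval of *Tubb3* to WT_2 included 0, at 0.01 (-0.02 to 0.04) and 0.02 (-0.01 to 0.05), and those of *Tuba4a* and *Tubb4a* excluded it against both WT libraries. *Tuba1a* stood at -0.02 (-0.04 to 0.00) to each WT library, and *Tubb2a* and *Tubb2b* summed stood at 0.00 (-0.04 to 0.03) to WT_1 and 0.00 (-0.03 to 0.03) to WT_2.

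*Tuba1c* had the largest ratio of the 10 genes in these pairs, 0.30 (-0.10 to 0.68) to WT_1 and 0.41 (0.02 to 0.81) to WT_2 by reads in the library labelled TRKC+/-. Its interval took in 0 for WT_1, and its reads are divided with *Tuba1a* and *Tuba1b*, whose sum with it was -0.03 and -0.01. In all, the interval excluded 0 for 2 genes above and 2 below for TRKC+/- to WT_1 (14.2% of all genes, either side) and for 3 above and 1 below for TRKC+/- to WT_2 (19.8%).

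A fit that takes the 2 WT libraries as replicates asks whether such differences exceed the spread between them. It has 1 residual degree of freedom, assumes that each lone mutant library varies like the WT libraries, and takes in any difference between the cohorts of the WT libraries. By edgeR's quasi-likelihood test with Benjamini-Hochberg adjustment over 14156 genes, 0 of the 10 tubulin genes passed an adjusted p of 0.05 in AdNTF3-Tg, where 0 genes passed in all (0.0%). At an unadjusted p under 0.05 there were 2 tubulin genes and 832 genes, and DESeq2 called 0 genes after adjustment. The smallest p values among the tubulins were those of *Tuba1a*, with a fitted log2 fold change of -0.14 (unadjusted p = 0.0116, edgeR adjusted p = 0.817), and *Tuba1b*, with -0.14 (unadjusted p = 0.0322, edgeR adjusted p = 0.817).

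For TRKC+/-, edgeR called 1 gene (0.00706%), which was not a tubulin, and 0 of the 10 tubulin genes, all with an edgeR adjusted p of 0.999. At an unadjusted p under 0.05 there were 0 tubulin genes and 273 genes, and DESeq2 called 2 genes, neither a tubulin. The largest fitted changes were those of *Tuba1c* (log2 0.35, unadjusted p = 0.146) and *Tuba4a* (log2 -0.10, unadjusted p = 0.188) in the edgeR fit.

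Other tubulin genes completed the picture. *Tubb4b*, the class IVb β-tubulin, was the only other one at a high level, with 464.94 FPKM in WT_1, 479.4 in WT_2, 461.48 in TRKC+/- and 443.8 in AdNTF3-Tg, from whole counts. Its lowest library was AdNTF3-Tg as well, with a log2 ratio of reads of -0.09 (-0.14 to -0.03) to WT_1. The α-tubulin gene *Tuba8* lay between 2.37 and 3.33 FPKM. *Tubg1* and *Tubg2* encode γ-tubulin, which seeds new microtubules, and lay between 31.32 and 35.31 FPKM and between 15.55 and 18.88 FPKM. The δ- and ε-tubulin genes *Tubd1* and *Tube1*, which act at centrioles, lay between 2.86 and 3.87 FPKM and between 0.48 and 1.46 FPKM. *Tube1* was the only one of these other tubulins past the cutoff, with log2 FPKM ratios of -1.04 for TRKC+/- to WT_2, 1.01 for AdNTF3-Tg to WT_1 and 1.43 between the WT libraries themselves, from 12 to 37 reads. *Tubb1*, the β-tubulin of platelets, and *Tubal3* had 1 read each, in AdNTF3-Tg alone, and *Tuba3a* and *Tuba3b* were not listed in any library.

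Of 68 genes of the tubulin pathway (the other tubulins, folding factors, modifying enzymes, nucleation and severing factors, and *Ttc5*), 63 were listed in all 4 libraries. Past the cutoff of 0.5 were 2 higher and 3 lower for TRKC+/- to WT_1, 0 higher and 4 lower for TRKC+/- to WT_2, 3 higher and 3 lower for AdNTF3-Tg to WT_1, 1 higher and 3 lower for AdNTF3-Tg to WT_2, and 7 higher and 0 lower for WT_2 to WT_1. Their median log2 FPKM ratios were -0.02, -0.02, -0.05, -0.05 and 0.00 in the same order. The shares past the cutoff were 7.94%, 6.35%, 9.52%, 6.35% and 11.1% of the 63 genes, each below the share over all genes in the same pair given above (10.7% to 13.9%). Of the 63 genes, 59 averaged at least 1 FPKM, against 12752 of all 15275. No share of all genes past the cutoff was taken at that level, so the shares are not matched for level.

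The 21 folding genes bring new tubulin to its folded and dimeric state. Past the cutoff, 1 was higher for AdNTF3-Tg to WT_1 (4.76%, against 13.9% of all genes) and 0 for AdNTF3-Tg to WT_2 (0.0%, against 13.3%). For TRKC+/- there were 0 to either WT library (0.0%, against 10.7% and 12.7%). For WT_2 to WT_1 the same 1 gene was higher (4.76%, against 13.4%). The gene was *Vbp1*, a prefoldin subunit, named after its values were seen, with 41.89 FPKM in WT_1, 59.58 in WT_2, 47.36 in TRKC+/- and 60.05 in AdNTF3-Tg, so that WT_1 stood below WT_2 as well. The median log2 FPKM ratio of the 21 genes was -0.10 for AdNTF3-Tg to WT_1 and -0.09 for AdNTF3-Tg to WT_2. *Tbca*, the cofactor that holds newly folded β-tubulin, stood at 169.03 FPKM in WT_1, 142.72 in WT_2, 138.07 in TRKC+/- and 120.89 in AdNTF3-Tg, with the mutants below both WT libraries and the WT libraries themselves apart. *Pfdn5*, a subunit of prefoldin that hands tubulin to the folding chamber, stood at 147.64, 148.69, 123.48 and 120.81 FPKM. *Tcp1*, a subunit of that chamber, stood at 147.95, 140.11, 135.24 and 138.62 FPKM. These 3 genes had both mutants below both WT libraries, as had 10 of the 21 folding genes. The share was 16.0% among the 12752 genes averaging 1 FPKM or more. This count was not a planned result, and no share was taken over genes of like level. By reads, the intervals of *Pfdn5* excluded 0 in each mutant pair. Those of *Tcp1* to WT_2 included 0 for both mutants (-0.12 to 0.03 for TRKC+/- and -0.09 to 0.06 for AdNTF3-Tg). So did that of *Tbca* for TRKC+/- to WT_2 (-0.19 to 0.15). In 1 folding gene both mutants were above both WT libraries, and in the other 10 the mutant and WT libraries overlapped. In TPM, added after the data were seen, both mutants were below both WT libraries in 6 of the 21, which include *Tbca* and *Pfdn5* but not *Tcp1*, against 11.4% of the 12752 genes.

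Of 23 modifying enzyme genes listed in all 4 libraries, 1 was higher and 3 lower past the cutoff in AdNTF3-Tg to either WT library (17.4%, against 13.9% and 13.3% of all genes). For TRKC+/- there was 1 higher and 3 lower to WT_1 (17.4%, against 10.7%) and 0 higher and 3 lower to WT_2 (13.0%, against 12.7%), and for WT_2 to WT_1 there were 3 higher and 0 lower (13.0%, against 13.4%). Among the 20 of these genes averaging at least 1 FPKM, 0 were higher and 2 lower in each of the 4 mutant pairs. For WT_2 to WT_1, 2 of them were higher and 0 lower. The share of all genes past the cutoff was not taken at that level, so these counts have no matched background. *Ttll3*, a tubulin glycylase, was by FPKM the only pathway gene of at least 1 FPKM past the cutoff in the same direction against both WT libraries, at 1.66 FPKM in WT_1, 2.42 in WT_2, and 1.09 in each mutant library. By reads the call was lost against WT_1, with log2 ratios of -0.33 (-1.13 to 0.40) for TRKC+/- and -0.42 (-1.24 to 0.32) for AdNTF3-Tg. Its expected counts were between 26.25 and 49.59, and the FPKM of the WT libraries differed by 0.52 on the log2 scale. *Ttl*, the ligase that adds the tail tyrosine back, lay between 61.96 and 66.11 FPKM, and *Agtpbp1*, which trims glutamates from the tail, between 61.99 and 64.78 FPKM. Neither moved past the cutoff in any pair.

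Of the 12 nucleation and severing genes, 0 were past the cutoff in AdNTF3-Tg to either WT library or in TRKC+/- to WT_2, 1 was higher in TRKC+/- to WT_1 (8.33%, against 10.7% of all genes), and 2 were higher in WT_2 to WT_1 (16.7%, against 13.4%). These were *Fign* (0.54 to WT_1 in TRKC+/- and 0.66 in WT_2), a severing enzyme, and *Mzt1* (0.52 in WT_2), a partner of γ-tubulin complexes, named after their values were seen. *Ttc5*, whose product recognises nascent tubulin and starts the decay of tubulin mRNA when free tubulin is in excess, stood at 22.44 FPKM in WT_1, 19.27 in WT_2, 20.79 in TRKC+/- and 18.32 in AdNTF3-Tg. On the log2 scale AdNTF3-Tg was -0.29 to WT_1 and -0.07 to WT_2, and WT_2 was -0.22 to WT_1.

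The cells in the ganglia bear on all these levels, and in bulk tissue fewer cells of a type and less RNA per cell cannot be told apart. All 15 sympathetic neuron markers were listed in every library, with summed levels between 13235 FPKM in AdNTF3-Tg and 14106 FPKM in TRKC+/-, and 5 of 15 were lowest in AdNTF3-Tg. Their median log2 FPKM ratio in AdNTF3-Tg was 0.02 to WT_1 and 0.01 to WT_2. Skeletal muscle markers summed to 93.56 FPKM in WT_1, 3.02 in WT_2, 41.69 in TRKC+/- and 32.46 in AdNTF3-Tg. Satellite glia markers summed to between 2116.7 and 2449 FPKM, Schwann cell myelin markers to between 573.94 and 611.21 FPKM, and fibroblast markers to between 248.39 and 323.88 FPKM. Macrophage markers were lowest in AdNTF3-Tg, with 101.42 FPKM against 139.08 in WT_1, 114.37 in WT_2 and 126.31 in TRKC+/-, and 4 of 6 were lowest there. Endothelial markers were lowest there too, with 32.07 FPKM against 37.15, 34.43 and 37.32, and 3 of 6. Adipocyte markers summed to 365.83 FPKM in WT_1, 332.33 in WT_2, 199.53 in TRKC+/- and 269.15 in AdNTF3-Tg, and platelet and red cell markers to 154.75, 59.44, 118.74 and 74.3 FPKM. The part of cell makeup in the tubulin levels was not tested.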

How the data were processed

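RNA was enriched with oligo(dT) and sequenced as single-end reads of 50 bases, filtered with SOAPnuke and mapped with HISAT2. The study's methods name the build mm9 and the submitters' processing notes name mm10 and RSEM. Whether counting used strand is not given in the sources used here. The authors deposited for each Entrez gene an expected count, which need not be whole, and an FPKM value. The effective lengths behind FPKM took off a median of 42.8 to 64.3 bases, depending on the library. Reads on genes numbered between 8665955 and 8894985 per library.

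Symbols came from RefSeq (GRCm38.p6, names only), which matched 17619 of 17667 identifiers. Sequences and positions came from GENCODE vM1 on NCBIM37. Log2 ratios of FPKM used a pseudocount of 0.1 over genes listed in all 4 libraries. Counting intervals are exact Clopper-Pearson 95% intervals on rounded expected counts. The edgeR (4.0.16) test used counts rounded to whole numbers, its filter on low counts and TMM scaling, with DESeq2 (1.42.0) as an alternative. The edgeR fit and the counting interval were tested on simulated data. Named were all 10 members, the other tubulins, pathway genes past the cutoff against both WT libraries with a mean of at least 1 FPKM, 6 further pathway genes, *Ntrk3* and *Ntf3*. *Vbp1*, *Fign* and *Mzt1* were named after their values were seen. *Stk16*, *Slc7a11* and *Gm20388* were named for shared sequence or position. The members and lists were chosen with earlier results of these data known. Some sequences of α-tubulin genes are not reported here.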

Additional observations from a re-analysis of the deposited data

How the results depend on the processing

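The count of tubulin genes past the cutoff stayed at 0 in all 5 pairs under pseudocounts of 1 and 0.01 FPKM, centred ratios, TMM scaling, DESeq2's size factors, filters on low or missing values and, added after the data were seen, reads per library total and TPM. With a cutoff of 0.25 it was 1 (*Tuba1c*) for TRKC+/- to each WT library and 0 in the other pairs. No share of all genes was taken at that cutoff. With the counting interval as the criterion the count of tubulin genes was 4, 4, 7, 7 and 2 for TRKC+/- to WT_1, TRKC+/- to WT_2, AdNTF3-Tg to WT_1, AdNTF3-Tg to WT_2 and WT_2 to WT_1. The tubulin genes lowest in AdNTF3-Tg were 10 by FPKM, reads per library total, TMM and size factors, and 6 by TPM, all added after the data were seen. In TPM the median log2 ratio of AdNTF3-Tg fell in size from -0.10 to -0.04 against WT_1 and from -0.11 to -0.06 against WT_2, and the ratios of *Tubb4a* and *Tubb5* to WT_1 were 0.05 and 0.01. Those of *Tubb4a* and *Tuba1c* to WT_2 were 0.05 and 0.0034. The mean summed level of the WT libraries was 4494.5 FPKM for the α genes, 10243 in TPM and 7183.8 in CPM, and for the β genes 3350.4 FPKM, 3822.5 FPKM with *Tubb4b* and *Tubb1* included, 7635.9 in TPM and 6372.1 in CPM. In edgeR, TRKC+/- called 1 gene, 2 with upper-quartile scaling, 0 without the filter and 2 by DESeq2's test, and 0 tubulin genes under each. The fitted log2 fold changes of the 10 genes in AdNTF3-Tg lay between -0.14 (*Tuba1a*) and -0.01 (*Tubb4a*) by edgeR and by DESeq2.

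Each group but WT has 1 pooled library. Leaving out 1 WT library leaves no residual degree of freedom, and the values against each WT library alone stand in the report. No paired analysis was possible because each mutant has a single library and the labels do not tie it to a WT library. Depth limits *Tubb6* and *Tuba1c* most, whose DESeq2 standard errors in AdNTF3-Tg were 0.30 and 0.51 on the log2 scale.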
